A study of Mus musculus with 18 samples.

Results

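The histone genes are the 76 genes of the 18204 in the table whose symbols begin as a core or linker histone symbol does (H1f, H2a, H2b, H3c, H3f, H4c or H4f, or the older Hist form). By symbol and annotated gene type, they were sorted into 60 replication-dependent genes, 10 variant genes and 6 pseudogenes or antisense RNAs. The first 2 classes are described apart. RNA was sequenced from J774.1 cells, a mouse macrophage cell line, in 6 groups with 3 replicates each, which the methods call biological. Wildtype cells and Ctbp1/2 dKO cells, which carry CRISPR frameshift and stop mutations in both Ctbp1 and Ctbp2, each received vehicle (PBS/DMSO), 1.5 mM MTOB or 0.25 mM 4-Cl-HIPP for 4 h in the same growth medium. Both compounds are used as inhibitors of the dehydrogenase domain of the transcriptional co-repressors CTBP1 and CTBP2, MTOB as an analogue of a substrate, and the study asked how specific they are. Both lines were grown out from single cells, and how many clones entered the samples is not given in the sources used here, so an effect of the knockout and of the clone cannot be told apart.

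Histones package DNA into nucleosomes, each a core of H2A, H2B, H3 and H4, with the linker histone H1 bound outside. Replication-dependent genes lie mostly in clusters, are transcribed in S phase and make mRNAs that end in a conserved stem-loop bound by SLBP instead of a poly(A) tail. Variant genes are transcribed throughout the cell cycle, mostly as ordinary polyadenylated mRNAs, and their products replace the canonical histones at particular places in chromatin. A library that starts from poly(A) RNA therefore holds little of the first class. The labels call the material polyA RNA and name an mRNA kit, whereas the methods name the same kit together with rRNA depletion, and which of these was done was not tested.

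The stem-loop is shown for the members that the results turn on, because it is the feature that marks a histone mRNA without a poly(A) tail. Letters are those of the genome on the gene's strand (GRCm39), the capitals mark the 16 bases of the stem-loop, and 5 bases stand on each side.
H1f2: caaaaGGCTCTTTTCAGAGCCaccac
H2bc4: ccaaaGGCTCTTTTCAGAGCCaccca
H2ac24: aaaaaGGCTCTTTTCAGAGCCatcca
H4c9: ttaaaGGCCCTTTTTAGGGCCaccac
H2ax: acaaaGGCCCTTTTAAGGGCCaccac
These 5 stem-loops lie in the 3′ UTR, between 24 and 46 bases after the stop codon, at chr13:23923495-23923510 for H1f2, chr13:23868630-23868645 for H2bc4, chr13:22017199-22017214 for H2ac24, chr13:22225136-22225151 for H4c9 and chr9:44246537-44246552 for H2ax. A match to the histone stem-loop consensus stood within 300 bases of genome after the stop codon in 58 of the 60 replication-dependent genes. Of these, 37 shared the core shown for H1f2. The 2 without a match were H2ac22 and H2bc21. Among the 10 variant genes, H2ax and H3f4 held one.

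Several of the annotated transcripts do not end at the loop. Gencode M39 continues the H1f2 transcript for 840 bases past it, that of H4c9 for 330 and that of H2ax for 822, and each of these ends with a poly(A) signal in its last 50 bases. H2bc4 has 5 coding transcripts, of which 4 lack the loop. The H2ac24 transcript stops 3 bases after it. H1f2 (linker histone), H2bc4 (H2B) and H4c9 (H4) are thus genes with an annotated longer form, and H2ax, counted here as a variant, has both a loop and a polyadenylated form.

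Nearly all histone RNA in these libraries came from variant genes. TPM, a transcript's share of all transcripts scaled to a fixed total per sample, is corrected for transcript length and so allows genes to be compared. Summed over the 10 variant genes, it lay between 2618 and 3086 TPM in the 18 samples. Summed over the 60 replication-dependent genes, it lay between 33.3 and 73.1 TPM. The replication-dependent genes thus held between 1.24% and 2.59% of the TPM of both classes. No H2B or H4 gene was classed as a variant by its symbol. The H2B and H4 genes classed as replication-dependent summed to between 6.30 and 21.1 TPM and to between 4.84 and 18.1 TPM.

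**Figure D1:**
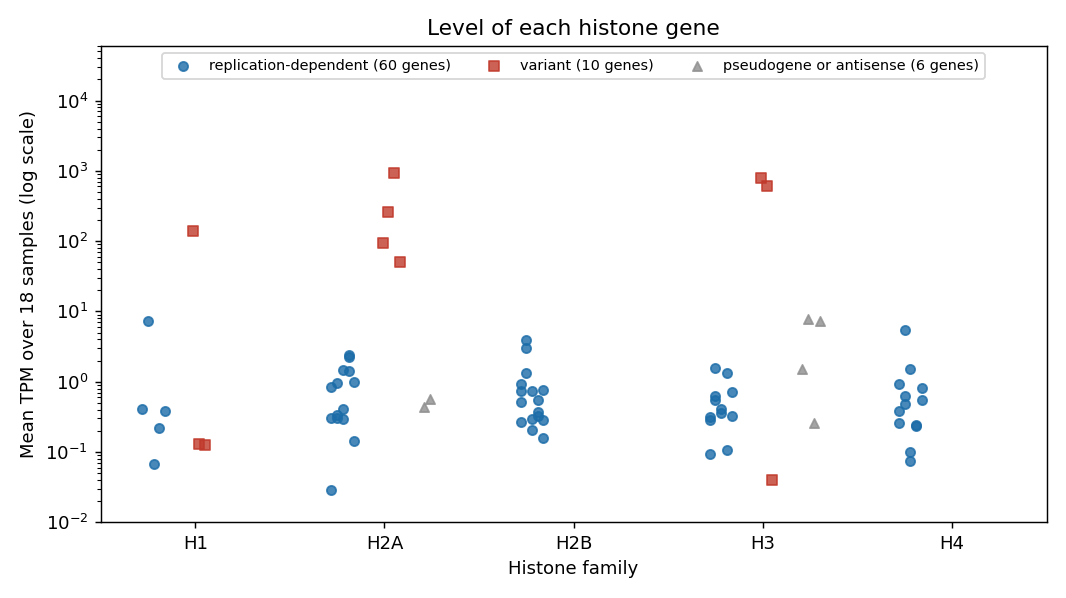
Mean TPM over 18 samples (log scale) of each of the 76 histone genes, by family, with circles for replication-dependent genes, squares for variant genes and triangles for pseudogenes or antisense RNAs. The 7 variant genes with a mean of at least 2 TPM stand above every replication-dependent gene, of which the highest is H1f2 at 7.23 TPM.

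Among the variant genes, H2az1, which encodes an H2A variant found at promoters, had the highest mean at 947 TPM. H3f3a and H3f3b, a pair of genes for the replication-independent H3 protein, followed at 793 and 601 TPM. H2ax, whose product is phosphorylated next to DNA breaks, stood at 261 TPM, and H1f0, a linker histone of slowly dividing and differentiated cells, at 139 TPM. H2aj and H2az2 had means of 95.4 and 50.9 TPM. The other 3 variant genes were barely detected, with means of 0.13 TPM for H1f8 and H1f10 and 0.039 TPM for H3f4.

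Replication-dependent genes were low one by one. Of the 60, 48 had a mean below 1 TPM, 6 a mean between 1 and 2 TPM and 6 a mean of at least 2 TPM, against a median of 7.18 TPM over all genes in the table. The 6 were H1f2 (7.23 TPM), H4c9 (5.36 TPM), H2bc4 (3.86 TPM), H2bc21 (3.05 TPM), H2ac24 (2.43 TPM) and H2aw (2.21 TPM). The next in the H1 and H4 families were H1f1 (0.40 TPM) and H4c12 (1.52 TPM). No H3 gene was among the 6, and the highest in that family were H3c8 (1.56 TPM) and H3c13 (1.31 TPM). At least 1 sample was listed at 0 for 53 of the 60 genes, and 9 or more samples for 38, whereas 35.2% of all genes in the table had a sample at 0. Read support was low too. The deposited count, averaged over samples after size-factor scaling, was 47.1 for H1f2, 14.3 for H2bc4 and 13.8 for H4c9. It reached 10 in 5 of the 60 genes.

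Level was set beside the annotated end of the transcript. TPM divides by transcript length, which goes with that end, so the medians below do not compare read counts. H1f3, with 7425 annotated bases past and before the loop, had an averaged scaled count of 1.89 at 0.068 TPM. H2ac24, with 482 annotated bases, had a count of 2.19 at 2.43 TPM. The groups were not compared by count. The 23 replication-dependent genes whose annotation runs more than 100 bases past the loop had a median of 0.33 TPM, and the 22 whose annotation ends at most 100 bases after it had a median of 0.54 TPM. In another 13 no annotated transcript held the loop, and their median was 0.41 TPM. At least 2 TPM was reached by 4 of the 23, among them H1f2, H4c9 and H2bc4, by 1 of the 22, H2ac24, and by 0 of the 13. H2bc21, with a poly(A) signal and no loop, was between 2.00 and 4.10 TPM in all 18 samples. It was counted as replication-dependent by its symbol alone, and whether it is a variant gene was not tested.

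Copies that share sequence, and low genes that share little, moved in and out of detection between replicates. H2ac24 shares 93.4% of its 31-base words with other genes. It was at 0, 4.18 and 0 TPM in the wildtype vehicle samples and at 0, 2.52 and 11.1 TPM in the wildtype MTOB samples. The pseudogene H3f3c, with 91.3% shared, lay between 0 and 21.1 TPM and was at 0 in 8 samples. More than 50% of these words were shared in 38 of the 60 replication-dependent genes and in 0 of the 10 variant genes, so values of single replication-dependent genes of that kind are uncertain. H1f2, H2bc4 and H4c9 shared 11.4%, 15.8% and 35.4%. Averaged scaled counts were low as well, at 2.19 for H2ac24 and 7.83 for H3f3c. H1f1, with 0.28% shared, was at 0 in 7 samples, and H1f5, with 3.93% shared, in 6. The part of sharing and of low counts in the values at 0 was not tested.

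Some other RNAs without a poly(A) tail were listed beside the histone genes. Of 20 such RNAs (small nucleolar, Cajal body and polymerase III RNAs), 11 were in the table, none with a mean over 9.52 TPM. What set their level was not tested. Scarna10 alone of them passed any comparison, at 3.02 ± 1.95 TPM (SD, n = 3) in wildtype and 0.985 ± 0.855 TPM in dKO vehicle samples, and it was listed at 0 in all samples with either inhibitor. The 11 RNAs summed to 35.7 ± 2.28 TPM (SD, n = 3) with vehicle, 20.05 ± 22.6 TPM with MTOB and 12.4 ± 5.35 TPM with 4-Cl-HIPP in wildtype samples, and to 23.1 ± 4.74, 23.3 ± 8.17 and 31.8 ± 17.1 TPM in dKO samples. With vehicle the wildtype samples lay above the dKO samples, and in wildtype cells the vehicle samples lay above those with 4-Cl-HIPP. The median log2 change of the list with MTOB in wildtype cells was -1.09. Their relation to the histone comparisons was not tested. The machinery of histone mRNA synthesis was present in every sample. Slbp, which binds the stem-loop, lay between 79.7 and 100.04 TPM in the 18 samples, and Npat, the activator of histone gene transcription, stood at 23.4 ± 1.02 TPM (SD, n = 3) in wildtype vehicle samples. Slbp, Npat, Casp8ap2, Lsm10, Lsm11 and Eri1 passed the test in none of the 9 comparisons, with a smallest adjusted p of 0.0700 (limma) for Lsm11. Of the 20 genes on that list, Sympk and Srrt alone passed in any comparison. Over all genes tested, between 0% and 11.2% passed in the 9 comparisons, so few calls are no sign that either list was unusually stable.

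Markers of the labelled cell type were present. Summed macrophage markers, of which 10 of 11 were in the table, lay between 3079 and 4161 TPM, and 4 of 12 fibroblast, epithelial and lymphocyte markers were in the table with sums between 0.0710 and 1.51 TPM. Ctbp1 was at 218 ± 18.1 TPM in wildtype and 25.1 ± 0.638 TPM in dKO vehicle samples (SD, n = 3), whereas Ctbp2 fell only from 92.6 ± 4.57 to 75.9 ± 3.13 TPM. Frameshift alleles can leave RNA, so the Ctbp2 value does not test the knockout. Replicates of a group correlated with r between 0.983 and 0.987 over the genes of a sample, themselves no replicates, and depth per sample is unknown because TPM keeps none.

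H2ax and H1f0 fell with MTOB in both genotypes. In wildtype cells, 5 of the 74 histone genes that passed the filter on low values passed the test, 1 higher and 4 lower. Over all 16383 genes tested, 7.26% passed in this comparison, 3.8% higher and 3.46% lower. H2ac4 and H3f4 did not pass the filter, and none of the 6 pseudogenes and antisense RNAs passed any comparison by limma, with at most 2 of them at an unadjusted p below 0.05. Of the 9 variant genes tested, 4 passed, and among all genes of at least 100 TPM 16.9% passed. Of the 59 replication-dependent genes tested, 1 passed. The median log2 change was -0.13 for the variant genes, -0.04 for the replication-dependent genes and -0.01 for all genes. Passing means an adjusted p below 0.05 (limma on log2(TPM + 1), two-sided, Benjamini-Hochberg over all genes). In bulk RNA, fewer cells expressing a gene and less RNA per cell cannot be told apart.

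H2ax (chr9:44245991-44247374, plus strand) was at 322, 295 and 297 TPM in the wildtype vehicle samples and at 228, 228 and 225 TPM with MTOB. All MTOB samples were below all vehicle samples. It fell by 25.5% of the mean, a log2 change of -0.42 ± 0.05 (SE, adjusted p = 2.8e-05, limma). In dKO cells it was at 259, 281 and 270 TPM with vehicle and at 218, 213 and 214 TPM with MTOB. The groups again did not overlap, and the log2 change was -0.33 ± 0.05 (SE, adjusted p = 4.0e-04, limma). The difference of the MTOB effects between genotypes was -0.10 ± 0.07 and did not pass the test (adjusted p = 0.83, limma).

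H1f0 (chr15:78912650-78914704, plus strand) showed the same direction. It stood at 156, 161 and 157 TPM in wildtype vehicle samples and at 127, 123 and 132 TPM with MTOB, and it fell by 19.3% of the mean. The log2 change was -0.31 ± 0.04 (SE, adjusted p = 2.8e-04, limma). In dKO samples it was at 141, 143 and 149 TPM with vehicle and at 112, 118 and 107 TPM with MTOB, with no overlap and a log2 change of -0.36 ± 0.04 (SE, adjusted p = 8.3e-05, limma). The effect did not pass as different between genotypes (difference 0.05 ± 0.06, adjusted p = 0.92, limma).

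**Figure D2:**
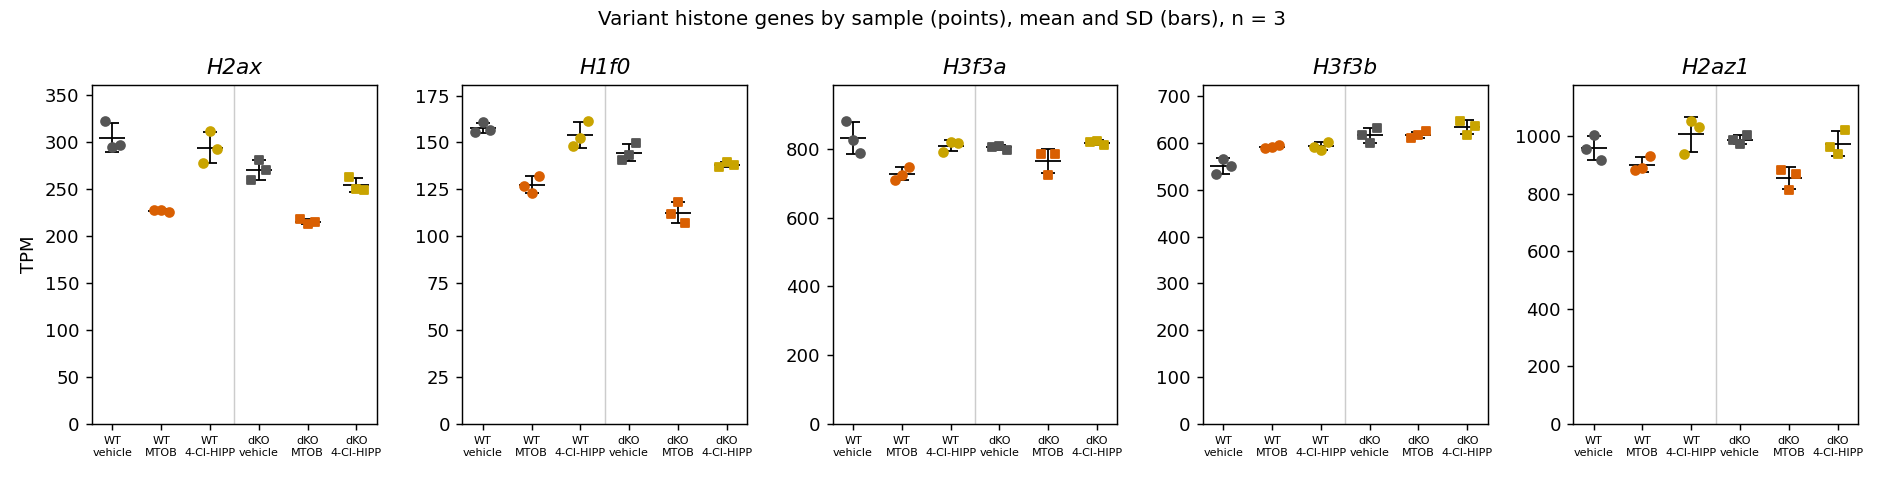
TPM of 5 variant histone genes in the 18 samples, with 1 point per sample and bars for mean and SD (n = 3), wildtype on the left and dKO on the right of each panel, from an axis that starts at 0. H2ax and H1f0 with MTOB sit below vehicle in both genotypes, whereas the shifts of H3f3a, H3f3b and H2az1 are smaller.

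The promoters of H2ax and H1f0 are shown because both genes fell with MTOB in both genotypes. Each line holds the 250 bases before the annotated gene start in Gencode M39 (GRCm39), at chr9:44245741-44245990 and chr15:78912400-78912649, both on the plus strand. Capitals mark matches, on either strand, to CCAAT and to the TATA sequence TATAAA. The octamer ATTTGCAT was searched too and matched neither.
H2ax: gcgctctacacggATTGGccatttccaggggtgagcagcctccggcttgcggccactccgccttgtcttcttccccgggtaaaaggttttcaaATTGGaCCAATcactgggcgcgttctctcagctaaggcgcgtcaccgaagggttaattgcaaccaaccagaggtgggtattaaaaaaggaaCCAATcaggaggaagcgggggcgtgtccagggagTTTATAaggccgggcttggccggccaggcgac
H1f0: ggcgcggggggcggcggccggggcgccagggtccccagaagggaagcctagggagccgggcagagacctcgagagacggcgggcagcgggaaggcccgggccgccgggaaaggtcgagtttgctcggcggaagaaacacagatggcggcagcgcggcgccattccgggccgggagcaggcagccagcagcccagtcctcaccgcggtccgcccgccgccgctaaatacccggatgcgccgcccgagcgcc
The H2ax window held 4 CCAAT matches and 1 TATA match, and the H1f0 window held none. CCAAT stood in 36.1% of the same windows of all protein-coding genes, in 73.3% of those of the replication-dependent genes and in 40.0% of those of the variant genes. It was in 14 of 14 replication-dependent H2A genes and in 3 of 13 H4 genes. The octamer was in 5 of 14 H2A and 5 of 16 H2B genes, in 0 of 5 H1, 0 of 12 H3 and 0 of 13 H4 genes, and in 1.52% of all windows. TATAAA was in 46.7% of the windows of the replication-dependent genes and in 12.5% of all windows.

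The other calls under MTOB were smaller or close to the threshold. H3f3a (chr1:180628051-180642178, minus strand) was at 881, 827 and 790 TPM in wildtype vehicle samples and at 711, 726 and 749 TPM with MTOB. Its log2 change was -0.19 ± 0.04 (SE, adjusted p = 0.0076, limma). In dKO cells the change was -0.07 ± 0.04 and did not pass (adjusted p = 0.35, limma). H3f3a and the 3 pseudogenes H3f3a-ps1, H3f3a-ps2 and H3f3c summed to 848 ± 38.7 and 744 ± 33.2 TPM (SD, n = 3) in the wildtype groups. This sum was lower with MTOB too. The pseudogenes were chosen by symbol, and whether H3f3c is a copy of H3f3a was not tested.

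H3f3b, the other gene for the same protein, changed in the opposite direction in wildtype cells. H3f3b (chr11:115912738-115918788, minus strand) was at 533, 567 and 552 TPM with vehicle and at 589, 593 and 597 TPM with MTOB, a log2 change of 0.11 ± 0.03 (SE, adjusted p = 0.033, limma). The call was lost when any sample but vehicle replicate 2 was left out, with an adjusted p of up to 0.145 (limma). In dKO cells it was at 618, 601 and 632 TPM with vehicle and at 611, 617 and 625 TPM with MTOB, and the groups overlapped. The difference of the effects between genotypes was 0.10 ± 0.04, with an unadjusted p of 0.020 and an adjusted p of 0.66 (limma).

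In dKO cells, 3 of the 74 histone genes passed, all lower, against 6.59% of all genes, 3.08% higher and 3.51% lower. All 3 were among the 9 variant genes tested, and 16.7% of all genes of at least 100 TPM passed. Besides H2ax and H1f0 this was H2az1 (chr3:137570072-137572690, plus strand), at 987, 972 and 1004 TPM with vehicle and at 882, 812 and 869 TPM with MTOB. Its log2 change was -0.21 ± 0.05 (SE, adjusted p = 0.016, limma), and in wildtype cells it was -0.09 ± 0.05 (adjusted p = 0.36, limma). The difference between genotypes did not pass (adjusted p = 0.77, limma), and without vehicle replicate 3 or MTOB replicate 2 the adjusted p in dKO cells was 0.064 and 0.068. Of the 59 replication-dependent genes tested, none passed in dKO cells by limma, and 3 had an unadjusted p below 0.05.

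H4c9 (chr13:22224806-22225532, minus strand), an H4 gene, was the replication-dependent gene called with MTOB. It was at 3.93, 6.31 and 5.12 TPM in wildtype vehicle samples and at 2.54, 3.41 and 2.32 TPM with MTOB. The log2 change was -0.70 ± 0.20 (SE, adjusted p = 0.049, limma), and without vehicle replicate 2 or 3 or MTOB replicate 1 or 3 the call was lost, with an adjusted p between 0.12 and 0.19 (limma). In dKO cells it was at 5.99, 6.63 and 5.76 TPM with vehicle and at 8.43, 7.34 and 6.33 TPM with MTOB, a log2 change of 0.23 ± 0.20 that did not pass. The difference of the effects was -0.92 ± 0.28, with an unadjusted p of 0.0055 and an adjusted p of 0.48 (limma).

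With 4-Cl-HIPP no histone gene passed in either genotype by limma, and 10 of 74 in wildtype cells and 4 of 74 in dKO cells had an unadjusted p below 0.05. Over all genes, 0.342% and 0.494% passed, and over genes of at least 100 TPM 0.494% and 1.05%. The comparisons with both inhibitors share the vehicle samples of a genotype, and the doses differ, so the values stand side by side only. By the methods, MTOB was dissolved in PBS and 4-Cl-HIPP in DMSO, so compound and solvent cannot be told apart between the inhibitors. For the vehicle, the paper names DMSO in its description and PBS/DMSO in its methods. Whether the MTOB samples held DMSO is not given, so compound and solvent may not be told apart for MTOB against vehicle either. H2ax was at 278, 312 and 292 TPM with 4-Cl-HIPP in wildtype and at 263, 250 and 249 TPM in dKO samples. Its log2 changes were -0.05 ± 0.05 and -0.09 ± 0.05. H1f0 was at 148, 152 and 161 TPM in wildtype and at 137, 140 and 138 TPM in dKO samples, with log2 changes of -0.04 ± 0.04 and -0.06 ± 0.04. The smallest adjusted p of a member was 0.18 (limma), for H3f3b in wildtype cells, with a log2 change of 0.11 ± 0.03.

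**Figure D3:**
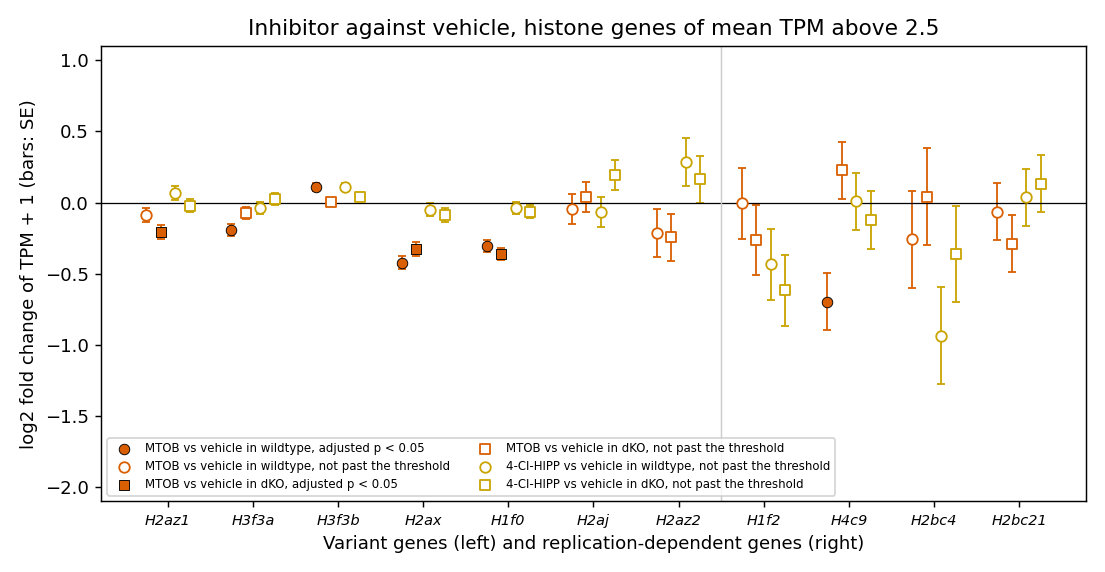
Log2 fold change of TPM + 1 against vehicle for the 7 variant genes (left) and 4 replication-dependent genes (right) of a mean above 2.5 TPM, with circles for wildtype, squares for dKO, orange for MTOB, yellow for 4-Cl-HIPP and bars for the SE. Filled points passed the test, and H2ax and H1f0 are filled for MTOB in both genotypes, at changes between -0.42 and -0.31.

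No member differed in its response to MTOB or to 4-Cl-HIPP between genotypes by limma. Unadjusted p was below 0.05 for 5 and 3 of the 74 histone genes, and 0.0916% and 0% of all genes passed. These counts do not show that the responses were alike.

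S phase genes are given beside the changes under MTOB. Of 32 listed genes for DNA replication, 1 rose and 11 fell in dKO cells, with Ccna2 (cyclin A) at a log2 change of -0.38 ± 0.03, Tk1 (thymidine kinase) at -0.34 ± 0.04 and Mcm6 (a subunit of the replicative helicase) at -0.23 ± 0.04. In wildtype cells 1 rose and 3 fell, and none of the 32 passed the test of the difference between genotypes by limma. Beside these 12 and 4 calls, 6.59% and 7.26% of all genes passed, and 16.7% and 16.9% of genes of at least 100 TPM. The median change over the list was -0.13 in dKO and 0.00 in wildtype cells, beside -0.01 for all genes in both. Of 27 histone chaperones and deposition factors, Daxx, Npm1 and Hat1 rose and Asf1b fell in wildtype cells. Npm1 and Daxx rose and Asf1b and Ep400 fell in dKO cells. Of 10 macrophage markers, 4 rose in wildtype and 3 in dKO cells, with Cd14 at 0.86 ± 0.07 and 1.18 ± 0.07, and none of the 4 other-cell markers passed. The part of these genes in the changes of H2ax and H1f0 was not tested.

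The dKO cells had more H1f2 RNA than wildtype cells under each treatment. With vehicle, 3 of the 74 histone genes passed, 2 higher and 1 lower, against 10.8% of all genes, 7.07% higher and 3.72% lower. With MTOB 4 passed, 3 higher and 1 lower, against 11.2%, 6.99% higher and 4.16% lower. With 4-Cl-HIPP 5 passed, 3 higher and 2 lower, against 10.2%, 6.54% higher and 3.63% lower. Among all genes of at least 100 TPM, 19.4%, 18.5% and 17% passed. The shares of histone genes, 4.05%, 5.41% and 6.76%, were below those of all genes, but they pool 2 classes of unlike level. Of the 59 replication-dependent genes tested, which are low, 1, 3 and 2 passed. Of the 9 variant genes tested, 2, 1 and 3 passed.

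H1f2 (chr13:23922791-23924350, plus strand), a replication-dependent linker histone gene, was at 4.93, 5.86 and 4.55 TPM in wildtype and at 10.7, 12.8 and 12.3 TPM in dKO vehicle samples. The dKO mean was 2.33 times the wildtype mean, a log2 difference of 1.08 ± 0.25 (SE, adjusted p = 0.0087, limma). With MTOB it was at 4.01, 6.21 and 5.17 TPM in wildtype and at 10.5, 12.5 and 7.01 TPM in dKO samples (log2 difference 0.83 ± 0.25, adjusted p = 0.043, limma). With 4-Cl-HIPP it was at 4.25, 4.70 and 2.06 TPM and at 7.90, 9.25 and 5.51 TPM (0.90 ± 0.25, adjusted p = 0.029, limma). The groups did not overlap under any treatment. Leaving out 1 sample raised the adjusted p (limma) to at most 0.038 with vehicle. With MTOB it was up to 0.17 without wildtype replicate 1 or 3 or dKO replicate 1 or 2, and with 4-Cl-HIPP up to 0.14 without wildtype replicate 3 or dKO replicate 1 or 2.

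H2bc4 (chr13:23867631-23878163, plus strand), an H2B gene, was at 1.38, 4.29 and 2.98 TPM in wildtype and at 7.84, 3.92 and 6.83 TPM in dKO vehicle samples, and these groups overlapped. The log2 difference of 0.92 ± 0.34 did not pass (adjusted p = 0.11, limma). With MTOB it was at 1.25, 2.17 and 3.08 TPM in wildtype and at 6.75, 6.51 and 5.37 TPM in dKO samples (log2 difference 1.22 ± 0.34, adjusted p = 0.029, limma). With 4-Cl-HIPP it was at 1.33, 0.632 and 0.881 TPM and at 2.62, 4.44 and 7.16 TPM (1.50 ± 0.34, adjusted p = 0.0085, limma). With any MTOB sample but wildtype replicate 3 left out, the MTOB call was lost, with an adjusted p of up to 0.13 (limma). H2bc4 shares 301 of its 3088 exonic bases with H2ac6 on the other strand, and the kit does not mark strand. H2ac6 had a mean of 0.029 TPM.

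H4c9 differed between genotypes with MTOB, at a log2 difference of 1.16 ± 0.20 (SE, adjusted p = 0.0010, limma). With vehicle it was 0.24 ± 0.20 and with 4-Cl-HIPP 0.11 ± 0.20, and neither passed (adjusted p = 0.59 and 0.85, limma). With 4-Cl-HIPP it was at 5.20, 4.48 and 5.62 TPM in wildtype and at 6.81, 6.36 and 3.87 TPM in dKO samples. Of the 60 replication-dependent genes, 49 lie on chromosome 13, as these 3 do.

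**Figure D4:**
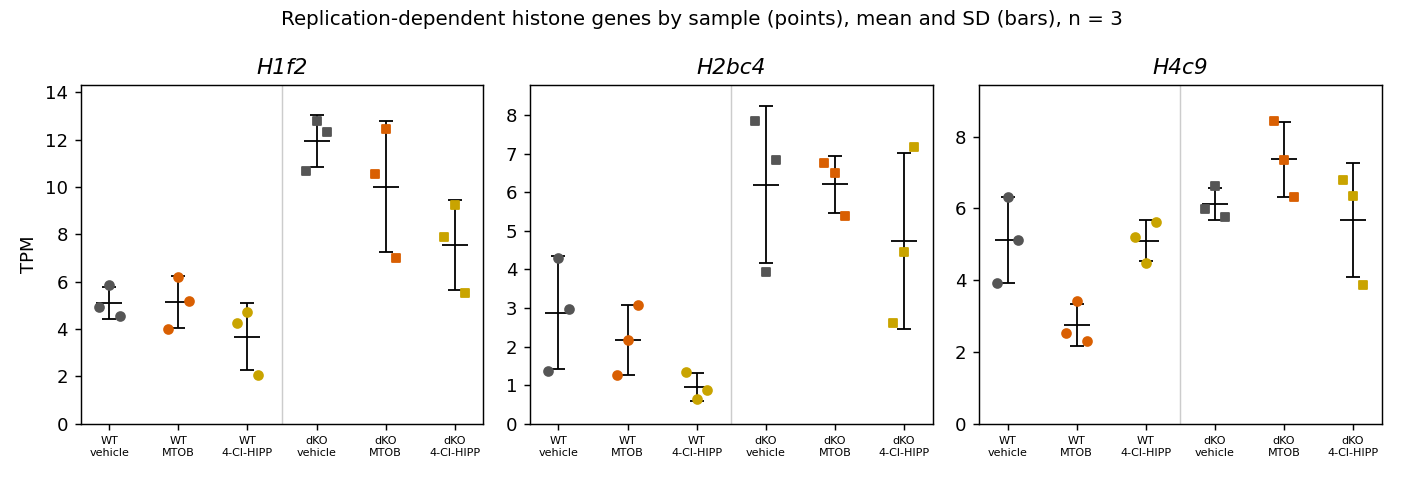
TPM of H1f2, H2bc4 and H4c9 in the 18 samples, with 1 point per sample and bars for mean and SD (n = 3), wildtype on the left and dKO on the right of each panel. The H1f2 samples of dKO cells lie above wildtype under each treatment, and the vehicle samples of H2bc4 overlap.

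The 60 replication-dependent genes together were at 47.3 ± 5.40 TPM in wildtype and 59.1 ± 3.22 TPM in dKO vehicle samples (SD, n = 3). The sums were 47.4 ± 13.2 and 55.2 ± 15.6 TPM with MTOB and 48.5 ± 5.41 and 60.8 ± 5.23 TPM with 4-Cl-HIPP. The wildtype and dKO ranges overlapped with MTOB and not with vehicle or 4-Cl-HIPP. The 6 genes of the highest mean summed to 20.1 ± 5.87 and 31.6 ± 1.34 TPM with vehicle, while the other 54 summed to 27.2 ± 4.15 and 27.4 ± 1.91 TPM. The 6 were chosen by their mean over all samples, dKO samples included. Of them, H1f2 and H2bc4 differed most with vehicle, and H2bc21 was at 2.97 ± 0.874 and 3.31 ± 0.723 TPM. With 4-Cl-HIPP the 6 summed to 17.7 ± 2.81 and 25.3 ± 1.899 TPM and the other 54 to 30.8 ± 2.88 and 35.5 ± 4.36 TPM. With MTOB the other 54 summed to 28.6 ± 6.14 TPM in wildtype and 23.8 ± 10.7 TPM in dKO samples, lower in the latter, and the 6 to 18.8 ± 7.27 and 31.4 ± 6.91 TPM. With vehicle, H1 genes summed to 6.03 ± 0.684 and 13.2 ± 0.978 TPM.

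**Figure D5:**
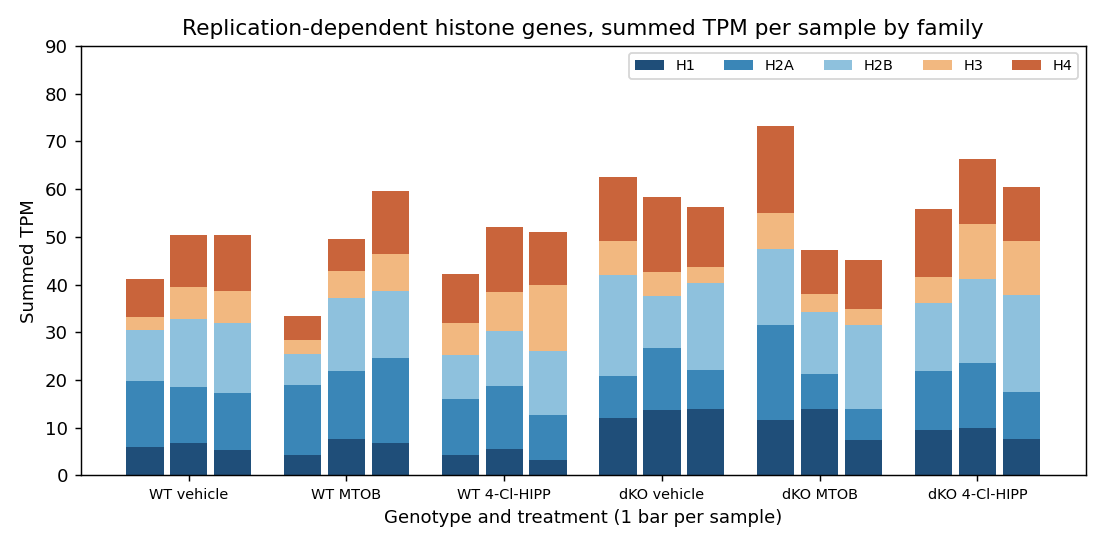
Summed TPM of the 60 replication-dependent histone genes, with 1 stacked bar per sample split by family, in the 6 groups. Sums run from 33.3 TPM in a wildtype MTOB sample to 73.1 TPM in a dKO MTOB sample, and the H1 segment is larger in dKO than in wildtype vehicle samples.

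The variant genes differed less between genotypes. H3f3b was higher in dKO vehicle samples, with a log2 difference of 0.16 ± 0.03 (SE, adjusted p = 0.0010, limma), from 551 ± 16.8 to 617 ± 15.6 TPM (SD, n = 3). The difference was 0.10 ± 0.03 with 4-Cl-HIPP (adjusted p = 0.043, limma) and 0.06 ± 0.03 with MTOB (adjusted p = 0.23, limma). H2ax was lower in dKO cells with vehicle, by a log2 difference of -0.17 ± 0.05 (adjusted p = 0.024, limma), and with 4-Cl-HIPP, by -0.21 ± 0.05 (adjusted p = 0.0073, limma). With MTOB the difference was -0.08 ± 0.05 (adjusted p = 0.38, limma). H1f0 was lower with MTOB at -0.18 ± 0.04 (adjusted p = 0.012, limma) and with 4-Cl-HIPP at -0.15 ± 0.04 (adjusted p = 0.033, limma), and with vehicle it was at -0.13 ± 0.04 (adjusted p = 0.082, limma). Several of these calls rest on single samples. H2ax with vehicle had an adjusted p between 0.067 and 0.12 without wildtype replicate 1 or dKO replicate 1 or 3. H1f0 with MTOB had 0.064 without replicate 3 of either genotype. With 4-Cl-HIPP, H1f0 kept its call only without wildtype replicate 1 and H3f3b only without dKO replicate 2, with adjusted p of up to 0.15 and 0.16. The summed variant genes were at 2959 ± 93.4 TPM in wildtype and 2960 ± 32.8 TPM in dKO samples with vehicle (SD, n = 3). With MTOB the sums were 2720 ± 63.3 and 2694 ± 68.0 TPM, and no MTOB sample reached the lowest vehicle sample of its genotype. With 4-Cl-HIPP they were 3017 ± 92.3 and 2973 ± 43.4 TPM, and these samples overlapped with vehicle.

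Histone variants outside the symbol rule also differed between genotypes. Cenpa, the centromeric H3 variant, was at 283 ± 16.3 TPM in wildtype and 215 ± 4.10 TPM in dKO vehicle samples (SD, n = 3), a log2 difference of -0.39 ± 0.05 (adjusted p = 3.4e-05, limma). Its differences with MTOB and 4-Cl-HIPP were -0.22 ± 0.05 and -0.25 ± 0.05, and both passed. With MTOB against vehicle in wildtype cells it was at -0.20 ± 0.05 (adjusted p = 0.017, limma). Macroh2a1, which encodes macroH2A, was at 180 ± 4.95 and 211 ± 4.34 TPM (0.23 ± 0.04, adjusted p = 0.0020, limma). With MTOB and 4-Cl-HIPP its differences of 0.14 ± 0.04 and 0.12 ± 0.04 did not pass (adjusted p = 0.054 and 0.097, limma). Macroh2a2 was at or near 0.

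Of the 32 S phase genes, 9 were higher and 1 was lower in dKO vehicle samples, with Tk1 at a log2 difference of 0.36 ± 0.04, Gins3 at 0.55 ± 0.07 and Cdt1 at 0.34 ± 0.04, which act in DNA synthesis or its start. The list median was 0.13 beside 0.01 for all genes. The counts were 5 and 1 with MTOB and 8 and 1 with 4-Cl-HIPP. Over all genes, 10.8%, 11.2% and 10.2% passed between genotypes with vehicle, MTOB and 4-Cl-HIPP. Among genes of at least 100 TPM, 19.4%, 18.5% and 17% passed. Macrophage markers moved with genotype as well, and with vehicle 3 of 10 were higher and 2 lower in dKO cells. Cd14 was at -1.67 ± 0.07, Adgre1 at -1.59 ± 0.18 and Itgam at 1.57 ± 0.18 under vehicle. The marker counts were 2 higher and 3 lower with MTOB and 3 and 3 with 4-Cl-HIPP. The part of either in the H1f2 difference was not tested.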

How the data were processed

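RNA-seq of J774.1 cells covered 18 samples in 6 groups by labelled genotype and treatment. Per the methods and the labels, the authors quantified transcripts with Salmon 1.9.0 on Gencode M28 (GRCm39), imported gene estimates and used DESeq2 1.44.0. They deposited a TPM per gene and sample, headed scaled TPM and summing to between 999766 and 999897. They also deposited, as a signal, each gene's count averaged over samples after size-factor scaling, used here for the filter and the variance trend. The authors' deposited log2 fold changes and adjusted p-values were not used.

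The 16383 genes above the 10th percentile of that average were fitted by limma 3.58.1 (R 4.3.3) on log2(TPM + 1), with 6 group means over all samples and empirical Bayes moderation with a trend. This scale understates changes of low genes. An adjusted p (Benjamini-Hochberg) below 0.05 passed. P-values set a difference of group means against the spread between replicates, estimated over the 6 groups together. Whether that spread includes differences between clones is not known. The fit was tested on simulated data. Members and gene lists were chosen with earlier results of these data known. Named histone genes were the 2 highest of each family and class and up to 10 called per comparison, and, from each list, the 3 smallest adjusted p besides fixed factors. Annotation and sequences came from Gencode M39, a later release on GRCm39. Alternatives were another pseudocount, filter, scaling, prior, block, sample set and leaving out each replicate.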

Additional observations from a re-analysis of the deposited data

How the results depend on the processing

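The lower H2ax and H1f0 with MTOB kept direction and call in both genotypes under every alternative run, with H2ax at an adjusted p of at most 0.00345 and H1f0 of at most 0.00238 when 1 replicate was left out (limma). When the fit held just the groups compared, 1 histone gene passed between genotypes under MTOB and 2 under 4-Cl-HIPP, and with a prior without a trend 3 passed under 4-Cl-HIPP. H3f3a with MTOB in wildtype cells lost its call only in the fit of the compared groups (adjusted p = 0.11, limma). H4c9 with MTOB lost it also with a pseudocount of 0.1 (adjusted p = 0.086), with no filter (0.054) and after size-factor scaling (0.055), and H1f0 between genotypes with vehicle passed after that scaling (0.032). Leaving out 1 replicate gave 3 to 5 called histone genes for MTOB in wildtype, 2 to 4 in dKO, 0 to 1 for 4-Cl-HIPP in wildtype, 0 in dKO, and between genotypes 2 to 5 with vehicle, 2 to 4 with MTOB and 2 to 5 with 4-Cl-HIPP. It moved the log2 change of H3f3b with MTOB in dKO cells between -0.017 and 0.0195, and the genotype difference of H4c9 with 4-Cl-HIPP between -0.0224 and 0.317, so the sign of neither held. Replicate numbers did not pair the samples (correlations of deviations between -0.06 and 0.08), and with the replicate block the numbers called were 5, 0, 3 and 0 for the inhibitors and 3, 4 and 5 between genotypes, with H4c9 under MTOB (adjusted p = 0.053) and H3f3b between genotypes under 4-Cl-HIPP (0.055) losing their calls and H3c3 (0.047) and H1f4 (0.039) gaining one in those comparisons, so the equal numbers are not the same genes. Over all alternatives for single genes, 65 values lost a call in the same direction and 487 kept their direction and their side of the threshold. Depth of each sample is unknown for TPM, and the deposited counts are averages over samples, so no floor per sample can be given for genes at 0.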
